A study of Mus musculus with 4 samples.

Results

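The near-gene intergenic regions of open chromatin found in every library of mouse fetal liver numbered 5753, of 55274 accessible regions in all. They were chosen from the peak lists of 4 ATAC-seq libraries, 2 from Hemgn knockout (KO) and 2 from wild-type (WT) fetal livers. Peaks on chromosomes 1 to 19 and X that shared at least 1 bp were merged. A region was kept when all 4 libraries had a peak in it and when its summit lay outside protein-coding genes, over 1 kb and up to 100 kb from the nearest gene boundary. Presence of peaks therefore chose the regions, and the summit came from the peak with the highest fold percentile in its own list. The set made up 20.9% of the 27465 regions found in all 4 libraries. They are called shared near-gene regions here.

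Chromatin that is free of nucleosomes can be cut by a transposase, and ATAC-seq reads where those cuts fall. Outside genes, such sites include enhancers, which bind transcription factors and act on promoters from a distance, insulator sites, and promoters of noncoding RNAs. In fetal liver at this stage most cells are erythroid precursors, in which GATA1, TAL1, LMO2 and KLF1 bind enhancers of globin, heme and red cell membrane genes. The product of Hemgn, hemogen, is found in nuclei of hematopoietic cells, and the series title sets it beside BRG1, the ATPase of the BAF nucleosome remodelling complex, at promoters and enhancers.

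Both groups were cells of whole fetal livers at embryonic day 14.5, with about 50000 cells in each Omni-ATAC reaction, per the labels. The groups are labelled hemogen KO and WT. The kind of KO allele, and whether the 2 replicates of a genotype were separate embryos, litters or pools, are not stated in the labels, so the spread between replicates may be technical. Fewer cells of a type and less accessibility per cell cannot be told apart in such bulk samples.

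Sequence at these regions is shown first, where the RefSeq tables of the build GRCm38.p6 hold it. The 4 promoters below start noncoding RNAs and have a summit of a shared near-gene region in their window of 250 bases before to 50 after the start. They are shown because they hold GATA words and, for 3 of them, the spaced pair of a partial E-box and a GATA site that GATA1, TAL1 and LMO2 are known to bind. Capitals mark AGATAA or TGATAA, and the composite motif of CTG and AGATAA with 8 bases of any kind between them, on either strand. These sequences were chosen after their values were seen. Gm39895 lies at chr2:103893810-103894109 on the plus strand, among the regions upstream of Lmo2. Gm32884 lies at chr7:128854694-128854993 on the plus strand, Gm31496 at chr2:10307541-10307840 on the minus strand and Gm40300 at chr5:50126298-50126597 on the minus strand.
Gm39895: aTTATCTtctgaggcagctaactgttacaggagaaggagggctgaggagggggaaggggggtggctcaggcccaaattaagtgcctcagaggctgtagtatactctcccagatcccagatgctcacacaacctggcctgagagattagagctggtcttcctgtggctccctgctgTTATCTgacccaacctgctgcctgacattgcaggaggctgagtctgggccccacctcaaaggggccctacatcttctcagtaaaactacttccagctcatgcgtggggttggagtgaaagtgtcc
Gm32884: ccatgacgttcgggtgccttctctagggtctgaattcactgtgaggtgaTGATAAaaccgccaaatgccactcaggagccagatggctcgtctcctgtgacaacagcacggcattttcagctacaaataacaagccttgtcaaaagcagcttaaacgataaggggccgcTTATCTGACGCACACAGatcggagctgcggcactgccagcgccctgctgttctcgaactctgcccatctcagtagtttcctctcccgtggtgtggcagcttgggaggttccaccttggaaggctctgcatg
Gm31496: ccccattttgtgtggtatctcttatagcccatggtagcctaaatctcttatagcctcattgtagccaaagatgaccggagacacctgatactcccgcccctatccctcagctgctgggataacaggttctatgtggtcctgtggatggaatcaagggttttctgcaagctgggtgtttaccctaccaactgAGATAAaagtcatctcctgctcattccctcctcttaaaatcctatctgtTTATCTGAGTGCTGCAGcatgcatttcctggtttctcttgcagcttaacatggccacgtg
Gm40300: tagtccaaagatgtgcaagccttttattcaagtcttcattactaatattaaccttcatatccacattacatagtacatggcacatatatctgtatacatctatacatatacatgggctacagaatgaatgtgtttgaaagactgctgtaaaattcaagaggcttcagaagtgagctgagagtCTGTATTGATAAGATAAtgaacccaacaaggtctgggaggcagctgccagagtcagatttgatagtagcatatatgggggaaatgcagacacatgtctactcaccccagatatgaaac

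A further pair of noncoding promoters is shown for contrast, because their regions ranked high in every library and they hold no such GATA site. Capitals in them mark CCNCNCCC, the kind of site that KLF and SP proteins bind, and CCGGAA, an ETS site, on either strand. Snhg5, the host gene of small nucleolar RNAs, lies at chr9:88522848-88523147 on the minus strand, and 5730405O15Rik at chrX:13041765-13042064 on the plus strand.
Snhg5: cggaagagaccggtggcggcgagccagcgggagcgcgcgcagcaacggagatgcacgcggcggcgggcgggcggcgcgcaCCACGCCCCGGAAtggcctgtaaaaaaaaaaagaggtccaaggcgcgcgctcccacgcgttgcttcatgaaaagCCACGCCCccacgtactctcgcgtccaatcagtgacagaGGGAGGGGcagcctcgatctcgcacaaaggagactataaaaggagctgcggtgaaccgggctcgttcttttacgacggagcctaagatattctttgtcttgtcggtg
5730405O15Rik: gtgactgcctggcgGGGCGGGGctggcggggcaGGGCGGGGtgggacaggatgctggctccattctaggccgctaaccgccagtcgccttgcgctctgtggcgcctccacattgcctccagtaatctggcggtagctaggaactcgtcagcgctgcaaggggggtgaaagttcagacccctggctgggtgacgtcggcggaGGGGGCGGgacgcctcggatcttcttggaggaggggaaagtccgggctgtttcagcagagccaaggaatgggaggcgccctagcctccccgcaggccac

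Hairpins of miRNAs also lay in or near shared near-gene regions. The mature sequences below, from the same RefSeq build, have the seed, bases 2 to 8, in capitals. The first 5 come from hairpins inside a region. miR-212-3p and miR-132-3p share the seed AACAGUC and come from 1 region near Ovca2. The last 2, miR-144-3p and miR-451a, are miRNAs of red cell precursors, and their hairpins lie within 10 kb of a pair of regions, both on the lower-coordinate side. Mature positions are chr11:87756903-87756925, chr7:141221407-141221428, chr10:122985698-122985719, chr11:75173443-75173464, chr11:75173723-75173744, chr11:78073047-78073066 and chr11:78073186-78073207, in the order listed, with miR-210 and let-7i on the minus strand and the others on the plus strand.
mmu-miR-142a-3p: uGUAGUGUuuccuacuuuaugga
mmu-miR-210-3p: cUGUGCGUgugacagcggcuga
mmu-let-7i-5p: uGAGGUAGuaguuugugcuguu
mmu-miR-212-3p: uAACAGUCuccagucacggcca
mmu-miR-132-3p: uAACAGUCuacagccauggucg
mmu-miR-144-3p: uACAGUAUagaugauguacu
mmu-miR-451a: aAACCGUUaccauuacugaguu

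The libraries had 35415 and 43005 peaks on these chromosomes in KO, against 47845 and 34167 in WT. No depth is stated in a peak list, and the precision of these values is limited by the number of libraries. The unit used for strength is a rank: the authors' fold enrichment of a region's best peak, as a percentile from 0 to 100 among the 27465 regions found in all 4 libraries, computed within each library. A rank is a place within 1 library and not a height, and the fold is itself a ratio to that library's background at the peak. Over the shared near-gene regions, ranks correlated with a Spearman rho of 0.852 between the KO libraries and 0.897 between the WT libraries. The pairs across genotypes gave 0.82, 0.824, 0.893 and 0.86, so Hemgn KO replicate 2 was closer to WT replicate 1 than to its own replicate. The tissue label was checked at gene boundaries: 7 of 8 erythroid marker genes had a boundary region in all 4 libraries, against 0 of 4 macrophage, 0 of 3 granulocyte and 0 of 3 lymphocyte markers. Gata1, the erythroid marker without a boundary region of its own, had accessible regions inside the gene. Megakaryocyte markers (3 of 4), hepatocyte markers (1 of 4), endothelial markers (1 of 3) and stellate markers (2 of 2) had such regions as well.

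Recurrence is given as a description, since presence in all libraries is the rule itself. Of all 14265 near-gene intergenic regions, 40.3% had a peak in all 4 libraries. The share was 82.2% for regions within 1 kb of a gene boundary, 38.4% for regions inside genes and 31.8% for gene deserts, which lie over 100 kb from any gene. The shared near-gene regions had a median width of 773 bp, and the 8512 near-gene regions found in 1 to 3 libraries had a median of 348 bp. Summits of a region lay close together in the libraries: the median distance between summits was 45 bp for the KO pair, 36 bp for the WT pair and from 29 to 48 bp for the pairs across genotypes. Summits lay over 500 bp apart in 1.63% to 2.4% of the regions.

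The median distance from summit to gene boundary was 12492 bp, with an interquartile range of 5700 to 28943 bp. There were 354 regions at 1 to 2 kb, 871 at 2 to 5 kb, 1226 at 5 to 10 kb, 1242 at 10 to 20 kb, 1388 at 20 to 50 kb and 672 at 50 to 100 kb. The share of near-gene regions present in every library was 35.3% in the nearest bin and between 39.0% and 43.0% in the others. Ranks were lowest close to genes. At 1 to 2 kb the median ranks were 26.1 and 26.0 in the KO libraries, against 30.2 and 30 in the WT libraries, and at 10 to 20 kb they were 39.0 and 42.3 in KO, against 41.3 and 42.9 in WT.

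**Figure D1:**
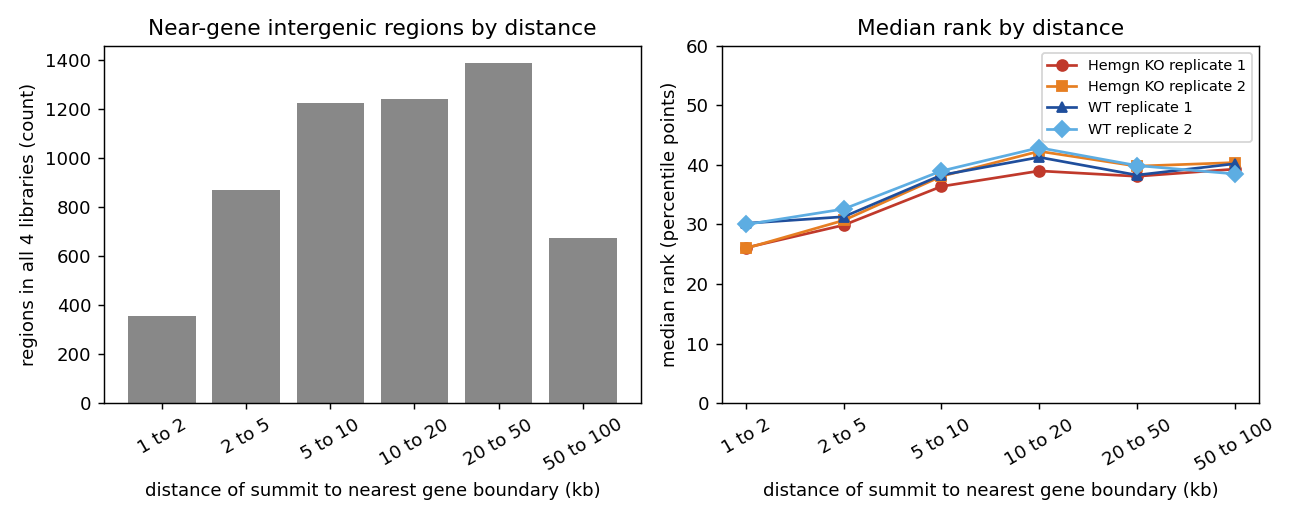
Left, the number of shared near-gene regions in each bin of distance from summit to nearest gene boundary, in kb. Right, the median rank in each bin and library, in percentile points: all 4 libraries are lowest at 1 to 2 kb, between 26.0 and 30.2, and reach 39.0 to 42.9 at 10 to 20 kb.

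At the lower limit of the distance rule, the regions just inside lay 1007 bp from Gpn2 and 1011 bp from LOC108167320, and those just outside lay 1000 bp from Rnf220 and 996 bp from Ccin. The Gpn2 region ranked at 30.7 and 30.5 in KO, against 41.6 and 46.2 in WT, and the Rnf220 region at 33.9 and 32.3 in KO, against 31.9 and 39.3 in WT. At the upper limit, regions 99965 bp from Mki67 and 99900 bp from Btg1 were inside, and regions 100301 bp from Gm38457 and 100563 bp from Mreg were outside. The Mki67 region had ranks of 14.6 and 18.6 in KO, against 23.6 and 16.9 in WT, and the Gm38457 region 59.2 and 44.6 in KO, against 50 and 33.5 in WT.

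The shared near-gene regions ranked below gene-boundary regions and near intragenic regions in all 4 libraries. Their median rank was 35.9 and 38.1 in the KO libraries, against 37.5 and 38.4 in the WT libraries. Relative to boundary regions, the median rank differed by -35.9 ± 1.56 points (SD over 4 libraries, negative in all 4). Relative to intragenic regions it differed by 2.63 ± 0.601 points, positive in 4 of 4 libraries, and relative to gene deserts by 0.194 ± 2.78 points, positive in 2 of 4. The exact two-sided sign-flip test over 4 libraries gave p = 0.13 for the first 2 differences, the smallest it allows, and p = 1 for the desert difference. When ranks were taken from the −log10 q instead of the fold, the difference from intragenic regions was -0.495 points (exact p = 0.25), and that from gene deserts was 4.42 points, at the smallest p the test allows. Few shared near-gene regions were at a rank of 90 or more in a library: 2.22% and 2.49% in KO, against 2.5% and 2.24% in WT, while boundary regions had 20% to 20.4%.

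**Figure D2:**
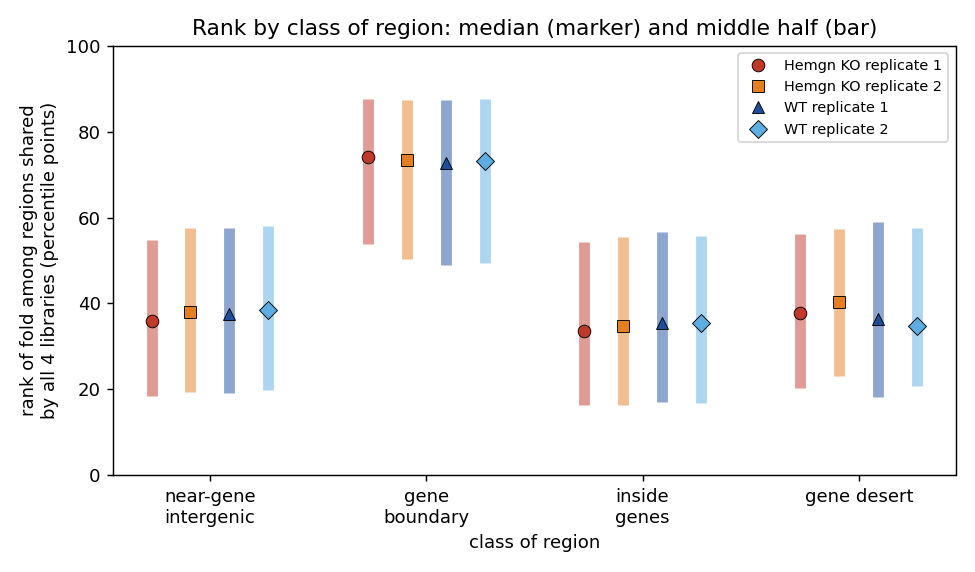
Rank of fold among regions shared by all 4 libraries, in percentile points, by class of region and library. Markers are medians and bars run from the lower to the upper quartile. Near-gene intergenic medians lie between 35.9 and 38.4, far below the boundary medians of 72.7 to 74.1.

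Regions stood on both sides of genes and in clusters. Strand was known for the nearest gene of 79.0% of them, and 51.1% of those lay before the gene's start, against 53.5% of the near-gene regions in 1 to 3 libraries. The regions before a start were farther away, with a median of 14869 bp, than those after an end, with a median of 10117.5 bp, and their median ranks differed by less than 3 points in every library. The median distance to the next shared near-gene region was 16584 bp, with 20.8% within 5 kb and 54.1% within 20 kb.

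The regions were spread over few genes. Of 21631 protein-coding genes, 3563 (16.5%) were the nearest gene of at least 1 shared near-gene region. Of these, 2374 had 1 region and 502 had 3 or more, and those 502 genes took 34.9% of all the regions. Genes with an accessible boundary in all 4 libraries had a shared near-gene region more often, 22.5% of 10904 genes, than genes without, 10.3%.

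The genes with the most regions were Zfp217, a zinc-finger corepressor gene, and Zfp36l2, an mRNA decay factor needed for self-renewal of erythroid progenitors in mice, with 12 each. BC107364 had 11, among them the region over Terc, the RNA template of telomerase. Cpeb4, a translation regulator of terminal erythroid differentiation in mice, Med13l, a Mediator kinase-module gene, Zfp184 and Pim1, a survival kinase gene, had 10 each. Azin1, an antizyme inhibitor, Cd24a, a surface antigen of erythroid precursors, Slc16a1, a lactate transporter, and Podxl, which the naming rule left out of its 10 genes, had 9 each. At Zfp217, 11 of the 12 lay before the start, up to 69.5 kb away. Levels differed widely within a cluster: the mean rank of the Zfp36l2 regions ran from 0.157 to 39.3, and that of the BC107364 regions from 1.35 to 96.5.

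Genes of the erythroid programme were often the nearest gene. Of 30 erythroid regulators, 18 (60%) had a shared near-gene region, as did 6 of 10 globin genes (60%), 10 of 24 heme and iron genes (41.7%) and 10 of 24 red cell membrane genes (41.7%), against 16.5% of all genes. The lists of genes other than erythroid ones were not uniformly low: 5 of 10 lymphocyte genes, 10 of 22 hepatoblast and hepatocyte genes, 6 of 12 endothelial and stellate genes and 7 of 15 stem and progenitor genes had one. Megakaryocyte and macrophage lists had 1 of 12 genes each, granulocyte and mast cell genes 3 of 12, and housekeeping genes 3 of 12. Over all 16 lists, 105 of 271 genes (38.7%) had a region. Among genes of the BAF complex, 8 of 26 had a region, among organelle clearance genes 3 of 12, among cell cycle genes 9 of 24 and among apoptosis genes 5 of 14.

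**Figure D3:**
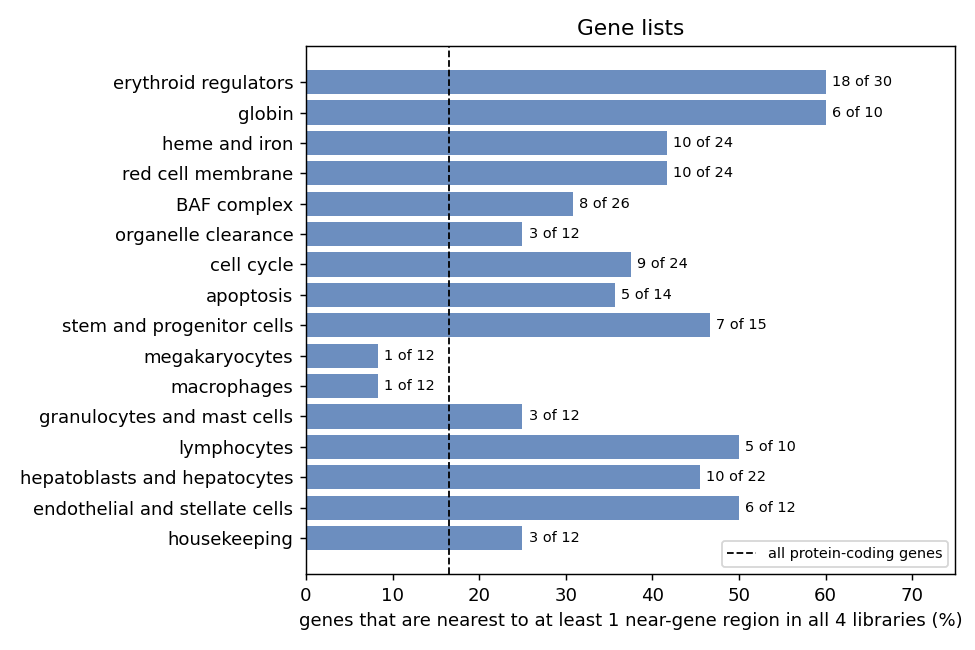
Share of the genes in each of 16 lists that are the nearest gene of at least 1 shared near-gene region, in percent, with counts beside the bars. The dashed line is the share of all protein-coding genes, 16.5%. Erythroid regulators and globin genes are at 60%, and megakaryocyte and macrophage genes are the lowest, at 8.33%. Lymphocyte genes and endothelial and stellate genes are at 50%, above heme and iron and red cell membrane genes at 41.7%.

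The most regions of any erythroid regulator were at Lmo2, the LIM-domain bridge between GATA1 and TAL1, which had 8, all on chromosome 2 between 12.1 and 76.6 kb from the gene on its lower-coordinate side. The region at 76.6 kb (103880941 to 103881735) ranked at 66.8 and 55.9 in the KO libraries and at 50.3 and 61.6 in the WT libraries. The region at 69.7 kb ranked at 47.9 and 55.3 in KO, against 59.5 and 44.1 in WT. In both, the groups overlapped. The region over the Gm39895 promoter shown above, at 63.9 kb, had ranks of 18.1 and 24.9 in KO, against 30.6 and 17.2 in WT. A wide range followed within 3 kb: the region at 62.4 kb had among the lowest ranks of the set, 1.55 and 0.384 in KO, against 0.508 and 0.0856 in WT. At 12.1 kb the ranks were 14.3 and 8.52 in KO, against 4.0 and 4.94 in WT, so both KO libraries were above both WT libraries by 3.58 points. Beyond these, 85.7 kb from Lmo2 and nearest to Caprin1, a region (103871740 to 103872554) ranked at 42.5 and 39.7 in KO, against 59.8 and 57.6 in WT. Both KO libraries were lower there by 15.1 points. Over all shared regions, 19.2% were higher and 20.5% lower in both KO libraries by any margin. These shares stand beside each gap of this kind given below.

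Myb encodes a transcription factor of progenitors, and the stretch between Myb and Hbs1l is known to hold its enhancers. This stretch had 8 shared near-gene regions, from 28.1 to 107.9 kb above the gene on chromosome 10. The strongest, at 67.7 kb (21228513 to 21228978), had ranks of 76.4 and 83.1 in KO, against 87.5 and 73.3 in WT, and the groups overlapped. At 28.1 kb the ranks were 45.1 and 44.5 in KO, against 57.5 and 54.9 in WT. At 81.0 kb (21241682 to 21242448) they were 44.0 and 43.9 in KO, against 56.8 and 59.8 in WT. Both of these regions ranked lower in both KO libraries, by 9.77 and 12.8 points. At 107.9 kb both KO libraries were lower by 6.11 points. The region at 98.9 kb (21259756 to 21260783) stood the other way, with 33.3 and 37.9 in KO, against 12.3 and 20.1 in WT, a gap of 13.2 points. Within 1 gene neighbourhood the differences thus pointed in both directions. By any margin, 19.2% of all shared regions were higher and 20.5% lower in both KO libraries. Nothing particular is read from the directions here.

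Gata2, the GATA factor of progenitors, had 1 region of its own 4.06 kb before its start, with ranks of 55.9 and 61.4 in KO, against 63.7 and 60.5 in WT. A region 77.2 kb away (chromosome 6, 88116370 to 88117505), nearest to Rpn1, lies in the stretch where a distal Gata2 enhancer is known from mice. Its ranks were 66.6 and 68.0 in KO, against 66.9 and 70.9 in WT, and the groups overlapped. Within 120 kb of Gata2 there were 7 shared near-gene regions, and some others did separate. At 69.9 and 57.5 kb both KO libraries were higher, by 4.39 and 3.36 points. At 118.6 and 45.1 kb both were lower, by 3.0 and 0.87 points. Gata1 was the nearest gene of 0 shared near-gene regions, and the single region within 20 kb of it was nearest to Glod5, with ranks of 59.2 and 52.6 in KO, against 48.6 and 59.3 in WT. Kit, the stem cell factor receptor, and Spi1, which encodes PU.1, were also the nearest gene of 0.

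Single regions with ranks above 65 in all 4 libraries lay near Runx1 (67.8 and 78.2 in KO, against 70.7 and 74.5 in WT) and near Bcl11a (66.0 and 74.3 in KO, against 65.2 and 73.7 in WT). RUNX1 is needed for blood stem cells, and BCL11A represses embryonic globin genes. A region 47.7 kb from Myc, inside the noncoding gene Pvt1, had ranks of 78.2 and 78.2 in KO, against 73.5 and 77.4 in WT. The groups overlapped at Runx1 and Bcl11a, and at Myc both KO libraries were higher by under 1 point. Tal1, the helix-loop-helix partner of LMO2, had a region 3.63 kb before its start with ranks under 1 in all 4 libraries, at the bottom of each.

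**Figure D4:**
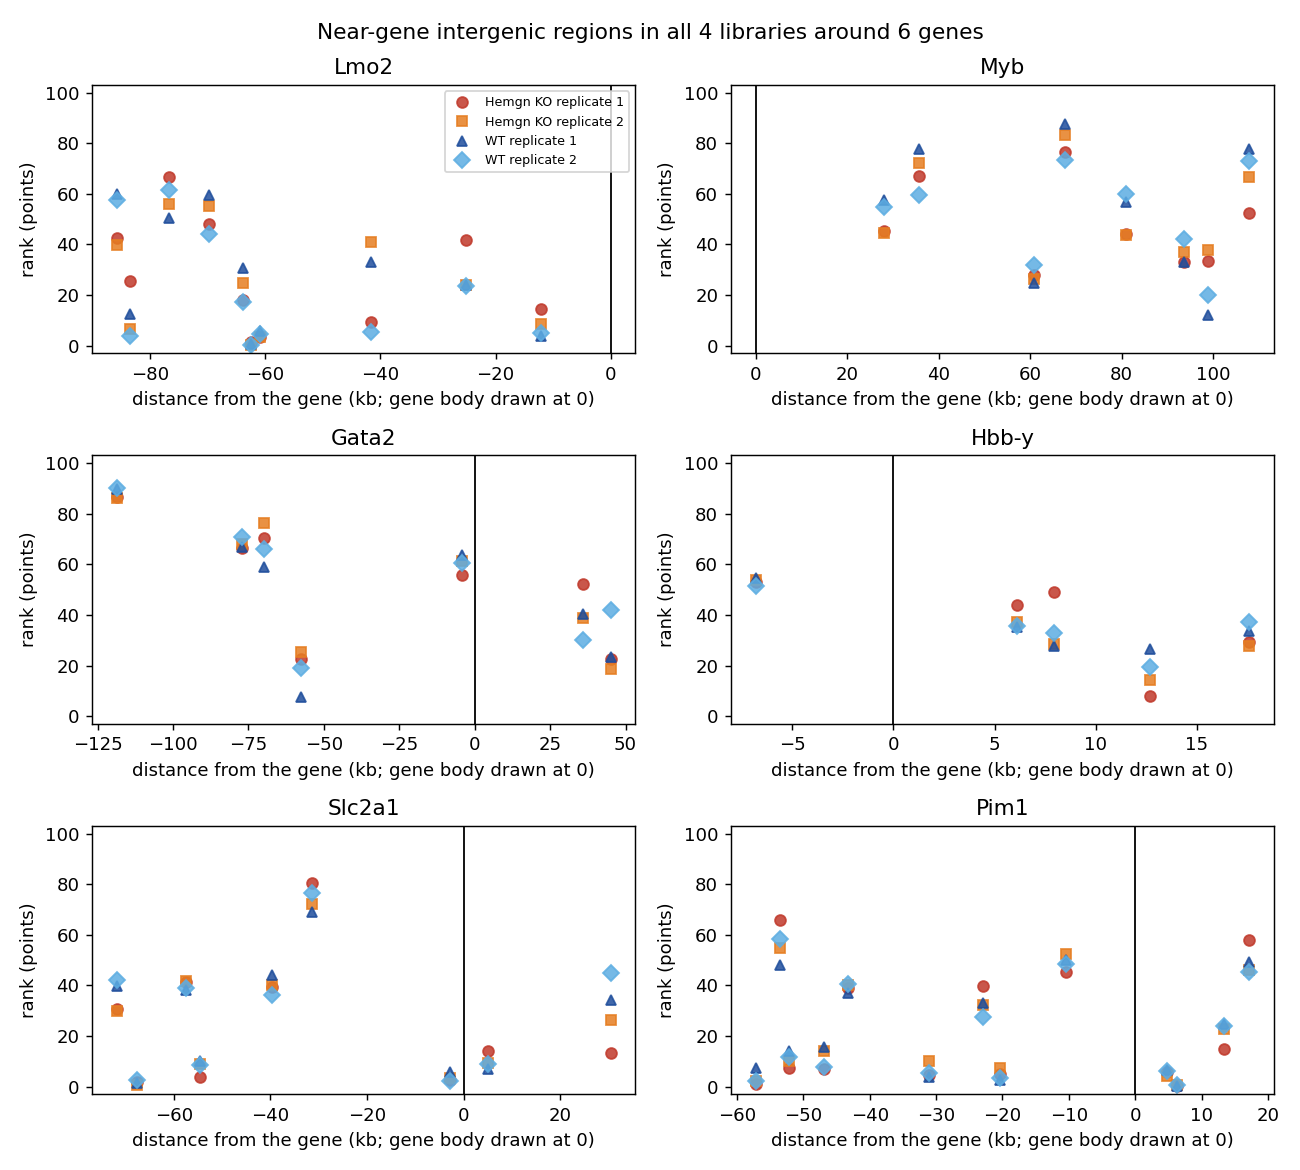
Ranks, in percentile points, of every shared near-gene region around 6 genes, by signed distance from the gene in kb, negative towards lower coordinates. Each marker is 1 library and the line at 0 stands for the gene body. The spread between regions of a gene is far wider than that between libraries at most regions: near Lmo2, mean ranks run from 0.631 to 58.6.

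At the beta-globin cluster, the locus control region lies upstream of the embryonic gene Hbb-y. This side held regions at 6.12, 7.92 and 12.7 kb from Hbb-y and, nearest to Olfr66, at 17.6 kb. The region at 6.12 kb ranked at 43.9 and 37.1 in KO, against 35.4 and 35.7 in WT, and the one at 12.7 kb (chromosome 7, 103865569 to 103866370) at 8.11 and 14.1 in KO, against 26.5 and 19.5 in WT. So KO libraries were both higher at the first and both lower at the second, by 1.39 and 5.41 points. On the other side of the cluster, the regions at 4.47 and 3.15 kb after Hbb-bt, an adult beta-globin gene, had ranks under 3 in every library. Near the alpha-globin genes on chromosome 11, Hba-a1 and Hba-a2 had 1 region each with ranks of at most 8.29, and the region 20.5 kb from Hbq1a had 57.8 and 72.5 in KO, against 63.9 and 72.7 in WT. Reads cannot be placed with certainty between these alpha-globin copies.

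Heme and iron genes had 18 regions. The highest was near Hmox1, the heme-degrading oxygenase, with ranks of 86.8 and 91.6 in KO, against 91.2 and 90.8 in WT. Tfrc, the transferrin receptor, had 3 regions, and the one 10.8 kb before its start (chromosome 16, 32597629 to 32598433) ranked at 75.8 and 82.0 in KO, against 85.2 and 88.6 in WT. Both KO libraries were lower there, by 3.13 points. Glrx5, a mitochondrial iron-sulfur cluster protein, had 4 regions, of which the one 6.14 kb before the start was the steadiest, with ranks of 11.8 and 13.1 in KO, against 11.6 and 12.9 in WT.

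Of 26 regions at red cell membrane genes, 7 belonged to Slc2a1, a glucose transporter, and 5 to Cd47, the signal that keeps macrophages from engulfing red cells. The Slc2a1 region at 31.4 kb (chromosome 4, 119076410 to 119077841) ranked at 80.6 and 72.1 in KO, against 69.1 and 76.5 in WT, and that at 57.5 kb, in the noncoding gene Lincred2, at 41.5 and 41.7 in KO, against 38.2 and 39.1 in WT. Slc4a1, which encodes band 3, had 2 regions, and the one at 10.5 kb is in Bloodlinc, an erythroid noncoding gene, with ranks of 29.7 and 27.7 in KO, against 18.5 and 25.1 in WT. At the regions in Lincred2 and Bloodlinc both KO libraries stood above both WT libraries, by 2.43 and 2.66 points, and at 31.4 kb the groups overlapped. The other Slc4a1 region, at 7.82 kb, had ranks under 1 in all 4 libraries. Cd47 had a region 11.3 kb before its start with ranks of 87.6 and 75.4 in KO, against 70.3 and 86.0 in WT. Kel, a blood group gene, had 4 regions. The one at 24.1 kb had ranks of 52.8 and 83.2 in KO, against 92.2 and 83.7 in WT, where Hemgn KO replicate 1 stood apart. The others, nearer to the gene, ranked at 21.9 or below in every library.

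The median over the regions' mean ranks was 10.6 for the red cell membrane list, 16.1 for globin, 25.7 for heme and iron and 27.8 for erythroid regulators, against 36.9 over all shared near-gene regions. Most named regions near these genes were thus in the lower part of the scale. Among the other lists, housekeeping (44.7), stem and progenitor (45.4), macrophage (48.3) and lymphocyte (50.9) genes were above 36.9. Low values were not particular to erythroid genes: hepatoblast and hepatocyte genes had 18.9 and endothelial and stellate genes 23.5. The rank is on the fold scale, so it is relative to the local background of each library, and the part of that background in these low ranks was not tested.

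Cell cycle and survival genes had larger clusters. Mki67, a proliferation marker, had 8 regions, and the strongest, 19.4 kb before the start, ranked at 87.4 and 84.3 in KO, against 92.2 and 82.9 in WT. Ccne1, which encodes cyclin E1, had a region at 36.7 kb with ranks of 94.2 and 93.5 in KO, against 93.4 and 91.2 in WT. Cdkn1b, a cyclin-dependent kinase inhibitor, had 4, of which 3 lie in Lockd, a noncoding gene whose promoter is known to act on Cdkn1b. Pim1 had 10, with ranks of 65.9 and 54.6 in KO, against 48.1 and 58.2 in WT, at the strongest. Arid1b, a BAF subunit, had a region 86.0 kb before its start with ranks of 90.3 and 92.5 in KO, against 97.7 and 90.7 in WT. Each of these pairs of groups overlapped except at Ccne1, where the KO libraries were higher by under 1 point.

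The question put to these regions by the design is whether their accessibility differs between Hemgn KO and WT livers. Over all of them, no difference in median rank or peak width was larger than the spread between libraries. The median rank averaged 37.0 ± 1.55 in KO and 38.0 ± 0.622 in WT (SD, n = 2 each), a KO minus WT difference of -0.989 points (exact two-sided permutation p = 0.667). The median peak width averaged 620 ± 50.9 bp in KO and 614 ± 75 bp in WT (SD, n = 2 per genotype, p = 1 by the exact permutation test). With 2 against 2 libraries the smallest possible p is 0.33. Leaving out Hemgn KO replicate 1 turned the difference in median rank to 0.146 points. The libraries with more peaks, Hemgn KO replicate 2 and WT replicate 1, had the wider peaks. The share of a library's peaks that fell in the regions was 16.6% and 13.6% in KO, against 12.3% and 17.3% in WT (means 15.1% ± 2.09 and 14.8% ± 3.5, SD, n = 2 per genotype). Since the rule puts a peak of every library in each region, between 5857 and 5896 peaks of each library fell there. The share therefore follows from the library's total number of peaks and is no evidence on genotype.

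Single regions were described by a gap rule, which is not a test: both KO ranks above both WT ranks, or both below, by at least 10 points. Of 5753 regions, 145 (2.52%) were higher in both KO libraries, against a background of 2.36% over all regions found in all 4 libraries. There were 199 (3.46%) lower in both KO libraries, against a background of 2.15%. The share lower in KO was 3.15% for intragenic regions and 0.563% for boundary regions. The share higher in KO was near its background, and the share lower in KO was near that of intragenic regions. By any margin, 921 regions (16.0%) were higher in both KO libraries, against a background of 19.2%, and 1378 (24.0%) were lower in both, against a background of 20.5%. At a gap of 5 points 364 regions (6.33%) were higher, against a background of 5.93%, and 537 (9.33%) were lower, against a background of 6.13%. At a gap of 20 points 31 regions (0.539%) were higher, against a background of 0.375%, and 28 (0.487%) were lower, against a background of 0.248%. With any 1 library left out, which asks less of a region, 426 to 513 regions were higher and 514 to 834 lower. Those sets held 5807 to 6717 regions instead of 5753. No background share stands beside these counts, so nothing particular is read from them. The median of KO minus WT over the regions was -0.928 points, against -0.0109 over all shared regions.

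**Figure D5:**
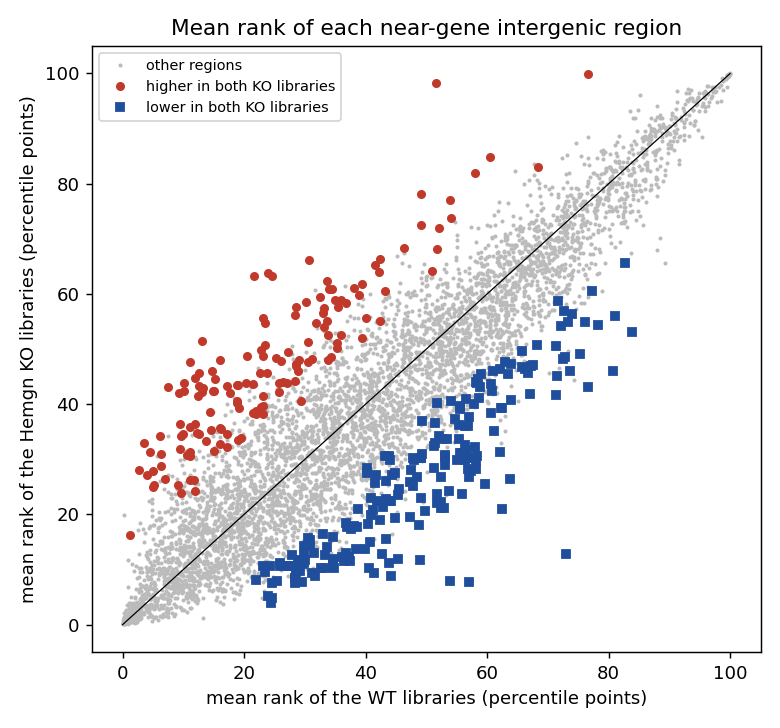
Mean rank of the 2 KO libraries against that of the 2 WT libraries, in percentile points, 1 point per shared near-gene region. The line marks equal ranks, with 145 regions higher in both KO libraries by at least 10 points (circles) and 199 lower (squares).

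Hemgn, the targeted gene, is given first. It had 3 shared near-gene regions before its start, all present in the KO libraries. At 2.99 kb the ranks were 2.01 and 8.11 in KO, against 22.1 and 9.04 in WT. At 6.67 kb they were 15.3 and 24.9 in KO, against 26.3 and 27.2 in WT, and at 13.5 kb (chromosome 4, 46417380 to 46417904) they were 6.7 and 13.7 in KO, against 39.4 and 23.4 in WT. Both KO libraries were below both WT libraries at all 3 regions, by 0.932, 1.37 and 9.67 points, and none passed the 10-point rule. Over all shared regions 20.5% were lower in both KO libraries by any margin. These peaks do not measure the gene's product and do not check the labels.

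The widest gap of all was lower in KO, near Ccl17, a chemokine gene. This region (chromosome 8, 94800236 to 94801162), 8.76 kb before the start, ranked at 6.25 and 19.3 in KO, against 70.7 and 75.1 in WT, a gap of 51.4 points. Its deposited fold was 3.44 and 4.8 in KO, against 12.4 and 11.8 in WT. Regions near Bex6 (9.29 and 6.02 in KO, against 53.9 and 60.1 in WT), Cebpe, Nfatc4 and Cby3 followed. Cebpe encodes a C/EBP factor of granulocyte maturation, and its region 2.13 kb away (chromosome 14, 54714036 to 54715170) ranked at 4.34 and 11.4 in KO, against 53.6 and 54.2 in WT. A second Cebpe region at 4.35 kb was also lower in both, at 53.1 and 48.8 in KO, against 66.4 and 60.2 in WT. Of the 12 granulocyte and mast cell genes, 2 (Prtn3 and Hdc) had a boundary region in all libraries, and Mpo and Elane did not. The Nfatc4 region had ranks of 20.2 and 21.8 in KO, against 53.9 and 71.1 in WT.

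The widest gap higher in KO was near Trim43a, 10.8 kb after its end on chromosome 9, at 98.1 and 98.6 in KO, against 60.3 and 42.9 in WT. Its deposited fold was 21.3 and 21.1 in KO, against 10.3 and 6.69 in WT. Trim43a belongs to a family of similar copies, so reads may be placed uncertainly. Pmaip1, which encodes the cell death protein NOXA, had a region at 51.8 and 51.3 in KO, against 11.8 and 14.3 in WT. Regions near Mfsd14b (48.5 and 46.8 in KO, against 11.8 and 10.5 in WT), Kcng3, a potassium channel gene, and Utp6, a ribosome biogenesis gene, followed.

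A few genes had 2 regions past the rule in 1 direction, and these were named after their values were seen. Fgfr4, a fibroblast growth factor receptor, had ranks of 74.3 and 82.0 in KO, against 56.8 and 41.5 in WT, at 1 of its 2 higher regions. Klrb1c, Mfsd14b and Rybp, a Polycomb component, also had 2 higher regions. Cpeb4, Med9 and Slc16a1 had 2 lower regions each. At Slc16a1 the region 53.1 kb before the start had ranks of 48.5 and 48.5 in KO, against 73.0 and 72.7 in WT, and at Cpeb4 the region 8.75 kb before the start had 57.5 and 52.4 in KO, against 72.4 and 74.4 in WT.

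Regions at genes of the erythroid programme did not pass the gap rule in either direction: 0 of 43 at erythroid regulators, 0 of 10 at globin, 0 of 18 at heme and iron and 0 of 26 at red cell membrane genes, beside backgrounds of 2.36% and 2.15%. Regions go by the nearest gene here, and the regions past the rule beside Myb and Lmo2 are nearest to Hbs1l and Caprin1. With backgrounds of that size few regions of such lists would pass, and nothing particular is read from the counts of 0. Median KO minus WT differences were -1.17 points for erythroid regulators, 0.527 for globin, -1.28 for heme and iron and -0.803 for red cell membrane genes. Outside these lists the medians ran from -19.8 for granulocytes and mast cells (4 regions) to 14.1 for endothelial and stellate cells (7 regions). Among the other lists, 7 regions passed the rule. All 16 lists together had 207 regions, of which 4 were higher and 3 lower by the rule. Those higher were 2 of 7 endothelial and stellate, 1 of 16 hepatoblast and hepatocyte and 1 of 18 apoptosis regions. Those lower were 1 of 11 stem and progenitor, 1 of 4 granulocyte and mast cell and 1 of 9 housekeeping regions. Nothing particular is read from these counts either. Higher in KO were regions near Col1a1 (34.1 and 43.5 in KO, against 21.5 and 22.3 in WT) and Pecam1 (33.9 and 42.6 in KO, against 23.8 and 22.3 in WT), genes of stellate and endothelial cells. Krt18, a keratin gene of hepatocytes, and Pmaip1 were also higher. Lower in KO were regions near Cd34, a progenitor surface antigen (13.8 and 6.81 in KO, against 30 and 27.1 in WT), Cebpe, and Polr2a, the large subunit of RNA polymerase II (42.0 and 45.4 in KO, against 65.0 and 56.2 in WT). Cd34 had 3 regions, and the one that passed was the lowest ranked. Its regions at 15.2 and 59.0 kb did not pass, with KO minus WT differences of -2.32 and -5.59 points. The endothelial and stellate list had 7 regions in all, and its defining markers at boundaries are given above. Their part in these differences was not tested.

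Noncoding genes overlapped many of the regions: 25.3% of the regions had a summit in a noncoding RefSeq gene, against 21.3% of near-gene regions in 1 to 3 libraries. Long noncoding RNA genes held 1314 of them (22.8%, against 19.5%). tRNA genes held 16 (0.278%, against 0.0822%), with a median mean rank of 12.0. Gene-desert regions found in all 4 libraries had higher shares, 36.3% for any noncoding gene and 34.1% for long noncoding RNA genes. The Terc region was among the strongest, with ranks of 96.9 and 95.1 in KO, against 97.7 and 96.3 in WT.

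Promoters in the RefSeq table could be looked up for 5588 of the regions, and 165 were not looked up. Of these, 179 (3.2%) had the summit in a promoter window. The share was 1.87% for near-gene regions in 1 to 3 libraries and 5.14% for gene-desert regions found in all 4. Regions with a promoter ranked higher, with a median of 56.4 and 58.7 in KO, against 57.5 and 55.8 in WT, than the regions without one, with 35.3 and 37.4 in KO, against 37.2 and 37.6 in WT. Of the 100 regions with the highest lowest-of-4 rank, 12 had a promoter. The Snhg5 region, shown above, ranked at 90 and 86.4 in KO, against 85 and 87.7 in WT, and the 5730405O15Rik region at 99.2 and 99.7 in KO, against 99.6 and 99.5 in WT.

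The 179 regions matched 208 promoter windows of 187 genes. Their median GC content was 55.3%, against 53.0% over all RefSeq promoters, 48.3% over long noncoding RNA promoters and 56.7% over protein-coding promoters. Motifs were counted on both strands in the 300-base windows and are matches of letters, not sites of binding. The 208 windows were chosen for an accessible summit, and the promoters they are set against were not. The part of accessibility itself in the differences below was not tested. AGATAA was in 20.2% of the 208, against 11.2% of all promoters and 14.0% of long noncoding RNA promoters, and TGATAA in 16.8%, against 9.0% and 11.7%. The 2 GATA words can overlap each other, and both can lie in the composite motif. That motif was in 6 windows (2.88%), against 0.365% of all promoters and 0.492% of long noncoding RNA promoters. CCNCNCCC was in 59.6%, against 49.8% of all and 36.4% of long noncoding RNA promoters. CCGGAA was in 18.3%, against 15.0% of all promoters. TGANTCA, an NF-E2 or AP-1 site, was in 12.0%, against 7.85%, and the CTCF core motif in 1.92%, against 0.374%. Long noncoding RNA promoters had these in 7.94%, 9.31% and 0.294%. GAGGAAGT, a PU.1 site, was in 3.85%, against 3.22% of all promoters and 3.34% of long noncoding RNA promoters. TGTTTAC, a FOXA site, was in 4.33%, against 3.67% and 4.84%, and TGTGGTTT, a RUNX site, in 1.92%, against 1.79% and 2.11%. For the FOXA and RUNX words the direction thus depended on the promoters compared. The C/EBP word TTGCGCAA and the HNF4 word CAAAGTCCA were in 1 window each (0.481%). All promoters had the C/EBP word in 0.184% and the HNF4 word in 0.478%, and long noncoding RNA promoters in 0.112% and 0.518%.

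The composite motif was in the promoters of Gm40716, Gm32884, Gm32745, Gm32798, Gm31496 and Gm40300. The Gm31496 region ranked at 33.5 and 43.3 in KO, against 60.8 and 60.4 in WT, lower in both KO libraries by 17.2 points. The Gm40300 region ranked at 33.3 and 51.8 in KO, against 61.6 and 55.6 in WT, lower in both by 3.8 points. The Gm32884 region, by contrast, ranked at 65.0 and 64.0 in KO, against 59.8 and 74.0 in WT, and the groups overlapped. The 3 sequences share the motif and differ in their ranks between genotypes.

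Of the miRNA regions, the one over Mir210, a hypoxia-induced miRNA, had ranks of 77.8 and 74.7 in KO, against 73.5 and 79.5 in WT, and the one over Mirlet7i had 64.5 and 65.6 in KO, against 68.7 and 70.8 in WT. Mir142, a miRNA of blood cells, lies in a region near Tspoap1 with ranks of 8.51 and 1.13 in KO, against 4.28 and 6.29 in WT. The region that holds Mir212 and Mir132 had 41.4 and 33.9 in KO, against 39.8 and 31.8 in WT. The pair of regions on the lower-coordinate side of Mir144 and Mir451a ranked low, at 10.2 and 8.71 in KO, against 14.9 and 9.53 in WT, and at 1.74 and 1.61 in KO, against 2.18 and 2.12 in WT. The widest difference among these was over Mir1983, near Zfp184, at 61.7 and 66.1 in KO, against 33.7 and 14.3 in WT, where the WT libraries also differed from each other.

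The strongest shared near-gene regions were picked by their lowest rank over the libraries, so high ranks in every library follow from the choice. The 10 with the highest lowest-of-4 rank were near Myl12b, Col19a1, Rimbp3, Csf2ra, 4930467E23Rik, Rpusd4, Pum2, Axin2, Rab2a and Dusp11, with ranks of 99.4 or more in each library. The Myl12b region had a deposited fold of 42.9 and 44.9 in KO, against 47.5 and 45.1 in WT, and the Col19a1 region 36.3 and 39.1 in KO, against 42.4 and 42.3 in WT. The Myl12b and Rimbp3 regions were only 240 and 237 bp wide, under the median of 773 bp. No list of artefact-prone regions was applied here, and read placement at these sites was not tested.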

How the data were processed

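The deposited files were 4 peak lists in the MACS2 narrowPeak layout, 1 per library and none pooled. MACS2 2.2.7.1, Picard 2.21.4, Bowtie2 2.3.5 and SAMtools 1.9 are named in the submitters' processing notes. No source used here gives the settings or the genome build. Fold enrichment, as deposited, is a ratio of signal to background at a peak, computed by the authors. The deposited −log10 p, −log10 q and score are the authors' values for each peak. Summits were placed on a RefSeq gene table of GRCm38.p6: 35.2% of the summits of regions found in all libraries lay within 300 bp of a RefSeq promoter start, against 1.26% to 1.52% after shifts of 5, 20 and 50 kb (26701 regions, chromosome 18 left out because the promoter table did not cover it).

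Peaks on chromosomes 1 to 19 and X were merged and summits assigned to the nearest of 21631 protein-coding genes, in Python 3.11.15 with pandas 2.3.3 and numpy 2.4.6. Ranks are percentiles of fold among the 27465 shared regions of each library. Library values were compared by exact permutation or sign-flip tests over libraries, and regions by a gap of at least 10 rank points beside the share over all shared regions.

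Named genes were the 10 nearest to the most regions, the 10 regions of highest lowest rank, up to 3 genes of each list, and the 5 widest gaps in each direction, and other regions named in the text were chosen after their values were seen. The members and lists were chosen with earlier results of these data known. Motif counts in RefSeq promoter windows took the place of counts in summit windows, since no genome sequence was used here.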

Additional observations from a re-analysis of the deposited data

How the results depend on the processing

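Alternatives were a rank by −log10 q, a −log10 q of at least 3, an overlap of 50%, a distance of 2 to 50 kb, other gap sizes, a replicate block and leaving out each library. Of the recomputed values, 57 kept their direction and their side of any threshold, though not always their size, 16 counts moved by over 1.5 times and 8 values reversed. The difference from intragenic regions turned to -0.495 points by −log10 q, where that from gene deserts was 4.42, against 0.194 by fold. The desert difference turned to -0.0252 at the −log10 q limit and to -0.582 at 2 to 50 kb, where the cause was not tested. Without 1 library at a time, the KO minus WT difference ran from -1.85 to 0.146 points for the median rank, from -2.17 to 3.24 percentage points for the peak share and from -51.5 to 60.5 bp for the peak width. The sign turned without Hemgn KO replicate 1 for the median rank (0.146) and the peak share (-1.34), without WT replicate 1 for the peak share, without Hemgn KO replicate 2 (-31.5) and WT replicate 2 for the width. The number of regions higher in KO then ran from 426 to 513 and lower in KO from 514 to 834, since fewer libraries ask less of a region. These counts are from sets of 5807 to 6717 regions and have no background share beside them. At a gap of 5 points 364 regions (6.33%) were higher and 537 (9.33%) lower, against backgrounds of 5.93% and 6.13%, and at 20 points 31 and 28 (0.539% and 0.487%), against 0.375% and 0.248%. With the replicate number as a block, a gap in both numbered pairs gave 241 higher and 303 lower, and the median rank differed by -0.989 points (exact p = 0.5). The numbers did not pair the libraries (r = -0.13 over 27465 regions), and crossed numbers, an alternative chosen after seeing the data, gave 242 and 342. The block counts have no background share beside them, so nothing particular is read from them. Motif shares in summit windows were not run. Depth is unknown from peak lists, and 2 libraries per genotype limit every comparison.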
